A study of Mus musculus with 7 samples.

Results

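The genes described here are Fas and 7 genes that act with it or beside it in cell death: Fasl, Fadd, Casp8, Cflar, Ripk1, Ripk3 and Mlkl. They were picked out by gene symbol. All 8 were found among the 53465 genes of the count table, and all 8 passed the filter on low counts. Poly(A)-selected RNA of whole kidney was sequenced from 7 MRL/lpr mice, of which 3 were given vehicle and 4 were given AZD1152 (barasertib), a prodrug of an Aurora kinase B inhibitor. Mice of this strain carry the lpr allele of Fas and develop a spontaneous lupus-like disease with nephritis. Both groups carry the allele, and the study has no mice with an intact Fas gene, so Fas levels could be compared between treatments only. The labels give the dose, the schedule and the age of the mice for neither group. The question was how these transcripts differed between kidneys of treated and control mice.

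Fas is a death receptor of the TNF receptor superfamily that is engaged by Fas ligand on activated T cells and natural killer cells. The bound receptor recruits the adaptor FADD, which gathers caspase 8 and its catalytically inactive relative cFLIP (the product of Cflar) into a signalling complex that either starts apoptosis or holds it in check. Where caspase 8 is not active, RIPK1 and RIPK3 can assemble through a shared interaction motif, and RIPK3 phosphorylates the pseudokinase MLKL, which then permeabilises the plasma membrane (necroptosis). The lpr allele is an insertion of a transposable element in an intron of Fas that disturbs the splicing of most of its transcripts. Lymphocytes that would be removed through Fas accumulate in such mice. A count per gene does not separate correctly spliced from disturbed transcripts, nor the long and short forms of cFLIP.

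The 7 libraries held 14692113 to 17036862 counts each. Levels are in CPM, counts scaled to a common library size. By total counts alone, without the further scaling between libraries described below, 3 counts were worth 0.176 to 0.204 CPM. Markers of kidney parenchyma (Lrp2, Umod, Slc12a3, Aqp2, Nphs1 and others) were detected, 13 of 13 passing the filter. Their summed level was 12357.6 to 13166.1 CPM in vehicle and 13668.0 to 15728.6 CPM in AZD1152 libraries. Much of this difference lay in Slc34a1, which averaged 3108.3 CPM in vehicle and 4961.2 CPM in treated libraries. Estimates were below 0 for 4 of the 13 markers. AZD1152 replicate 2 had the highest share of mitochondrial transcripts (11.6%, beside 8.03% to 9.76% in the other 6 libraries). On the first principal component it stood at 47.1, and vehicle replicate 3 stood about as far out at the opposite end (-46.2). Among the 4 treated libraries AZD1152 replicate 2 was also the lowest for 5 of the 8 genes (Fasl, Fas, Casp8, Ripk3 and Mlkl) and the highest for Fadd. In edgeR's quasi-likelihood test with Benjamini-Hochberg adjustment at 0.05, 759 of 15774 genes were lower with AZD1152 (4.81%) and 476 were higher (3.02%). Library sizes were scaled by TMM (trimmed mean of M-values). With plain total counts the median over all genes shifted to -0.15, and the calls became 1482 lower and 232 higher.

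Of the 8 genes, 1 fell in the treated kidneys, Mlkl, beside 4.81% of all genes, and 0 rose, beside 3.02%. The necroptosis effector Mlkl was 2.79-fold lower, and the kinase upstream of it, Ripk3, was estimated at 2.02-fold lower without passing the test. Fas and Fasl also had estimates below 0 that did not pass, and the adaptor, the caspase, its inhibitor and Ripk1 had estimates within 0.17 of 0 on the log2 scale. At an unadjusted p under 0.05 there were 4 lower genes (Fasl, Fas, Ripk3 and Mlkl, beside 13.1% of all genes) and 0 higher (beside 11.7%). DESeq2 called 2 lower (Ripk3 and Mlkl, beside 7.5% of all genes) and 0 higher (beside 6.02%), and edgeR with total counts called the same 2 lower (beside 9.4%). In Ripk3 and Mlkl the groups did not overlap, with the treated libraries lower, as was so for 11.6% of all tested genes. The median log2 fold change was -0.38 over the 8 genes and -0.00 over all genes tested. Without vehicle replicate 3 the count of lower genes among the 8 was 0 (beside 1.02% of all genes), and without AZD1152 replicate 3 it was 2 (beside 3.88%).

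**Figure D1:**
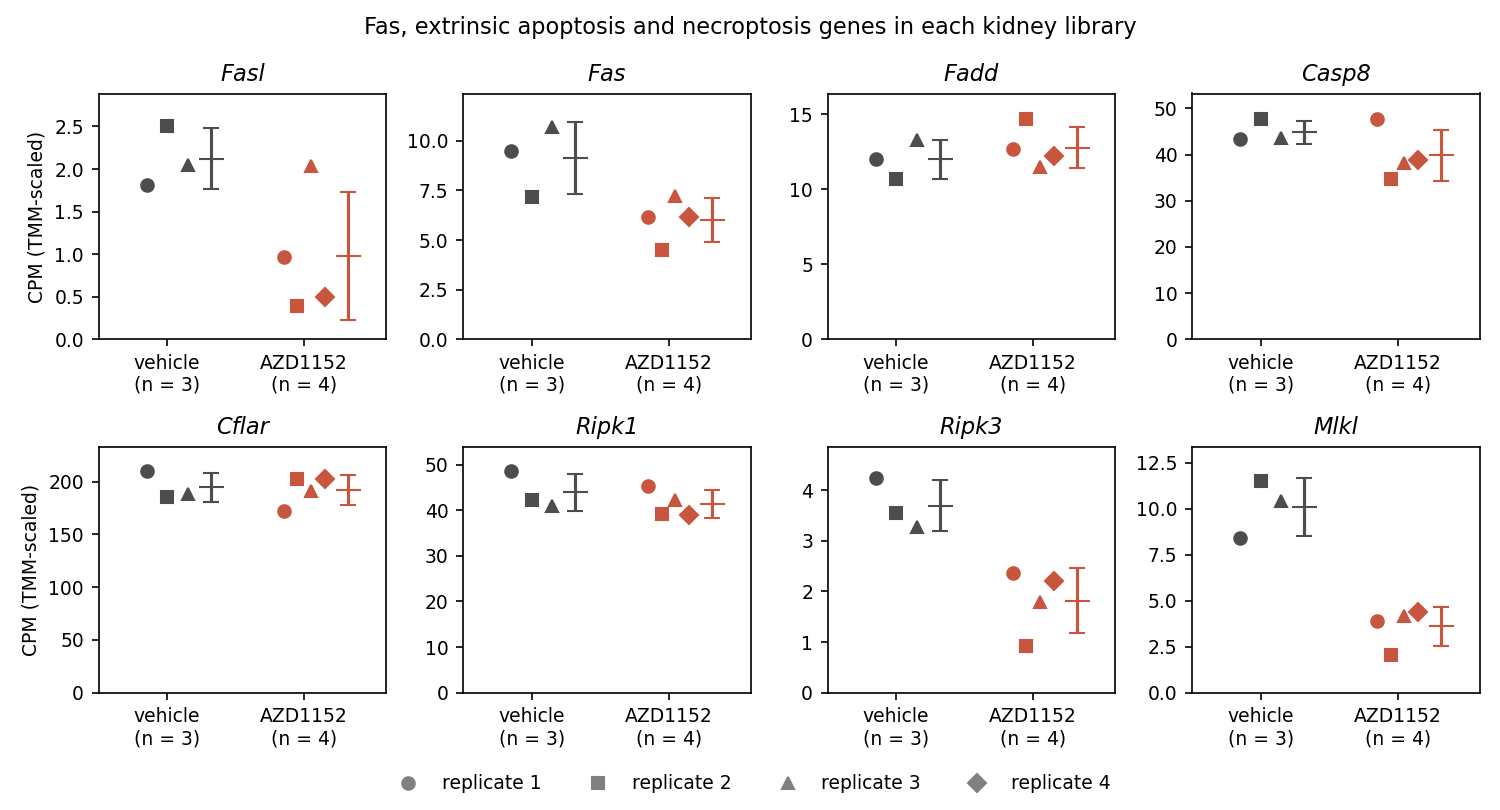
Level of each of the 8 genes in CPM (vertical axes, from 0), with 1 point per kidney library, marker shape for the replicate number, and the group mean with its SD at the side (vehicle in grey, n = 3, and AZD1152 in red, n = 4). The treated points of Ripk3 and Mlkl lie below all vehicle points, and the groups overlap in the other 6 panels.

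Fasl (ENSMUSG00000000817; GRCm38 chromosome 1, 161780689 to 161788495, minus strand) encodes Fas ligand, a product of activated T cells and natural killer cells. It had 1.81, 2.51 and 2.05 CPM in vehicle replicates 1 to 3 and 0.968, 0.398, 2.04 and 0.496 CPM in AZD1152 replicates 1 to 4. AZD1152 replicate 3 lay inside the vehicle range, and the other 3 treated libraries lay below it. The counts behind these values were small, 31 to 44 with vehicle and 6 to 32 with AZD1152. The log2 fold change was -1.10 ± 0.48 (SE; edgeR adjusted p = 0.197), with a 95% interval of -2.20 to -0.01 that carries no correction for the number of genes. Without AZD1152 replicate 3 it was -1.75 (edgeR adjusted p = 0.0398). Over 16 T cell markers, the summed level was 122.0 to 203.1 CPM with vehicle and 55.3 to 89.5 CPM with AZD1152. AZD1152 replicate 2, the lowest for Fasl, was also the lowest for this sum. AZD1152 replicate 3, inside the vehicle range for Fasl, had a sum of 83.5 CPM, below all vehicle libraries. The part of T cells in the Fasl values was not tested, and in bulk tissue fewer cells of a type and less RNA per cell cannot be told apart.

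Fas itself (ENSMUSG00000024778; chromosome 19, 34290666 to 34327772, plus strand) was detected in every library. It had 9.5, 7.14 and 10.7 CPM with vehicle, from 125 to 193 counts. With AZD1152 it had 6.17, 4.52, 7.22 and 6.16 CPM, from 68 to 113 counts. The lowest vehicle library lay just under the highest treated library, so that the groups overlapped in 1 library each. Means were 9.12 ± 1.82 CPM (SD, n = 3) and 6.02 ± 1.12 CPM (SD, n = 4), and Fas differed by -0.60 ± 0.20 log2 units (SE; edgeR adjusted p = 0.0993; 95% interval -1.05 to -0.15). DESeq2 gave an adjusted p of 0.0527, and the log2 fold change was -0.47 to -0.75 over 16 alternatives, of which 0 passed.

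The adaptor, the initiator caspase and its inhibitor did not pass the test, and their groups overlapped. Fadd (ENSMUSG00000031077; chromosome 7, 144577318 to 144582463, minus strand) links the receptor to caspase 8. It had 10.7 to 13.3 CPM with vehicle and 11.5 to 14.7 CPM with AZD1152. The estimate of 0.09 ± 0.13 log2 units (SE; edgeR adjusted p = 0.719) was -0.07 under scaling by total counts. Its exons share 239 bases with the antisense gene Faddos, which had 0 to 3 counts per library. The 95% interval of the Fadd difference reached from 12.9% lower (a change of -12.9%) to 29.8% higher.

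Casp8 (ENSMUSG00000026029; chromosome 1, 58795374 to 58847503, plus strand) encodes the protease that starts apoptosis downstream of death receptors and that also cleaves the kinases of necroptosis. Its levels were 43.3, 47.7 and 43.5 CPM with vehicle and 47.7, 34.7, 38.2 and 38.8 CPM with AZD1152. AZD1152 replicate 1 was level with the highest vehicle library, and the other 3 treated libraries lay below all vehicle libraries. The log2 fold change was -0.17 ± 0.11 (SE; edgeR adjusted p = 0.38; 95% interval -0.42 to 0.08). Cflar (ENSMUSG00000026031; chromosome 1, 58711508 to 58758884, plus strand), a neighbour of Casp8 on the same strand, encodes the inhibitor cFLIP. It had the highest counts of the 8 genes, 2844 to 3607 per library. Levels were 185.2 to 210.1 CPM with vehicle and 172.1 to 202.8 CPM with AZD1152. The log2 fold change was -0.02 ± 0.09 (SE; edgeR adjusted p = 0.918), and the interval of -0.21 to 0.18 corresponds to changes of -13.8% to 12.9%. The sign of this estimate turned without vehicle replicate 1 (0.04) and without AZD1152 replicate 1 (0.03).

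Of the 3 genes of the necroptosis pathway proper, Ripk1 did not pass the test, Ripk3 was lower in every treated library and did not pass either, and Mlkl fell. Ripk1 (ENSMUSG00000021408; chromosome 13, 34002363 to 34037147, plus strand) encodes the kinase and scaffold that serves survival signalling as well as both forms of death. Its levels were 48.5, 42.3 and 41.0 CPM with vehicle and 45.2, 39.1, 42.3 and 38.9 CPM with AZD1152, with overlapping groups. The log2 fold change was -0.09 ± 0.09 (SE; edgeR adjusted p = 0.606), and the 95% interval covered changes of -18.1% to 8.37%. Of its 8344 exonic bases, 241 are shared with Serpinb6a on the other strand, and Gm17084, which shares 511, had 0 counts.

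Ripk3 (ENSMUSG00000022221; chromosome 14, 55784995 to 55788865, minus strand) encodes the kinase that phosphorylates MLKL. It had 4.25, 3.54 and 3.28 CPM with vehicle, from 59 to 73 counts. It had 2.36, 0.93, 1.79 and 2.2 CPM with AZD1152, from 14 to 39 counts. All 4 treated libraries lay below all 3 vehicle libraries, and AZD1152 replicate 2 lay lowest. The means were 3.69 ± 0.505 CPM (SD, n = 3) and 1.82 ± 0.639 CPM (SD, n = 4). The log2 fold change was -1.02 ± 0.30 (SE; edgeR adjusted p = 0.072; 95% interval -1.69 to -0.34). DESeq2 called the gene (adjusted p = 0.0219), and so did edgeR under scaling by total counts (-1.16, adjusted p = 0.0466, where the median of all genes was -0.15). Without AZD1152 replicate 2 the estimate was -0.81 (edgeR adjusted p = 0.0782).

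Mlkl (ENSMUSG00000012519; chromosome 8, 111311797 to 111338177, minus strand) encodes the membrane-permeabilising effector of necroptosis. It had 8.39, 11.5 and 10.4 CPM with vehicle, from 144 to 201 counts. It had 3.87, 2.06, 4.15 and 4.39 CPM with AZD1152, from 31 to 65 counts. The groups did not overlap, with 4.39 CPM in the highest treated and 8.39 CPM in the lowest vehicle library. Mean levels were 10.1 ± 1.57 CPM (SD, n = 3) and 3.62 ± 1.06 CPM (SD, n = 4). The log2 fold change was -1.48 ± 0.25 (SE; edgeR adjusted p = 0.0147), with a 95% interval of -2.04 to -0.92 or changes of -75.7% to -47.2%. The call was lost without vehicle replicate 3 (-1.46, edgeR adjusted p = 0.0591) and kept with each of the other 6 libraries left out. Without AZD1152 replicate 2, the lowest library, the log2 fold change was -1.30 (edgeR adjusted p = 0.0118).

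The promoters of these genes are shown because Mlkl and Ripk3 were lower in every treated library and Fas carries the allele that defines the strain. RefSeq promoters (GRCm38.p6) were matched for 8 of 8 genes, with 2 starts for Ripk1, and the 250 bases before each start were searched on both strands for 4 motifs. These were the core of the interferon-stimulated response element (2 copies of GAAA with 2 bases between them), the interferon-gamma-activated site (GAS) (TTCNNNGAA), the NF-kB consensus and the p53 half-site. The interferon-stimulated response element core was found in 0 of the 8 genes and in 2.98% of 32851 promoters. The GAS element was found in Fas and at 1 start of Ripk1, and in 7.02% of all promoters. The NF-kB consensus was found in 0 of the 8 genes and 7.25% of all promoters, and the p53 half-site in Fasl and 7.13% of all promoters. A match of letters is a description and not a site of binding, and this window is short. The GAS match of Fas begins 93 bases before the start and is set in capitals in the Fas sequence, and the other 2 sequences hold no match. Each is read 5′ to 3′ on the strand of the gene, at chr8:111338206-111338455 (minus strand) for Mlkl, chr14:55788858-55789107 (minus strand) for Ripk3 and chr19:34290409-34290658 (plus strand) for Fas.
Mlkl: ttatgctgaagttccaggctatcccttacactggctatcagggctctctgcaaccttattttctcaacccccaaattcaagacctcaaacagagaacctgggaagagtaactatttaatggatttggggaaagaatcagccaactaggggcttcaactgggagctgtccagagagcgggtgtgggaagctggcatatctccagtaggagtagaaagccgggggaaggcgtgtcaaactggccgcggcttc
Ripk3: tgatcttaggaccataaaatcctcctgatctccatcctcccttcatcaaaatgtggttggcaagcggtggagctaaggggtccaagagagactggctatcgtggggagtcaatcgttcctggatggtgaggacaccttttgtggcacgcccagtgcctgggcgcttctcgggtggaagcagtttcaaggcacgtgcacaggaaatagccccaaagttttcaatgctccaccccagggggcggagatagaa
Fas: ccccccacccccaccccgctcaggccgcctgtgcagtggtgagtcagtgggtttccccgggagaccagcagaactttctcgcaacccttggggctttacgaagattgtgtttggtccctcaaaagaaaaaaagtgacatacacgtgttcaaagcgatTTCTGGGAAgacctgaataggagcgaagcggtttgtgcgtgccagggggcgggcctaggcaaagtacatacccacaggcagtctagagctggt

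Levels of different genes were compared per kilobase of annotated exon. In vehicle kidneys the order was Casp8 (15.5 ± 0.853 CPM per kilobase, SD, n = 3), Cflar (15.4 ± 1.07), Ripk1 (5.26 ± 0.484), Fas (4.42 ± 0.882), Mlkl (4.39 ± 0.683), Fadd (3.08 ± 0.325), Ripk3 (1.61 ± 0.22) and Fasl (1.1 ± 0.185). The ranges of Casp8 and Cflar overlapped, as did those of Ripk1, Fas and Mlkl. Fadd at 2.75 to 3.4 CPM per kilobase lay below the 3.46 of the lowest Fas library. Ripk3 and Fasl lay below it without touching each other, at 1.43 to 1.86 and 0.932 to 1.3. By this level Casp8 stood above 80.4% of the tested genes, Mlkl above 49.8% and Fasl above 20.7%. In treated kidneys Mlkl averaged 1.57 ± 0.461 CPM per kilobase (SD, n = 4), below Fadd at 3.27 ± 0.35, whereas it had been above Fadd in vehicle kidneys. The exons of Cflar add up to 12669 bases, while its longest protein-coding transcript has 6572. With such transcript lengths Cflar came first in vehicle kidneys, at 29.6 ± 2.06 CPM per kilobase (SD, n = 3) beside 17.3 ± 0.955 for Casp8, and the other 6 genes kept their order.

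**Figure D2:**
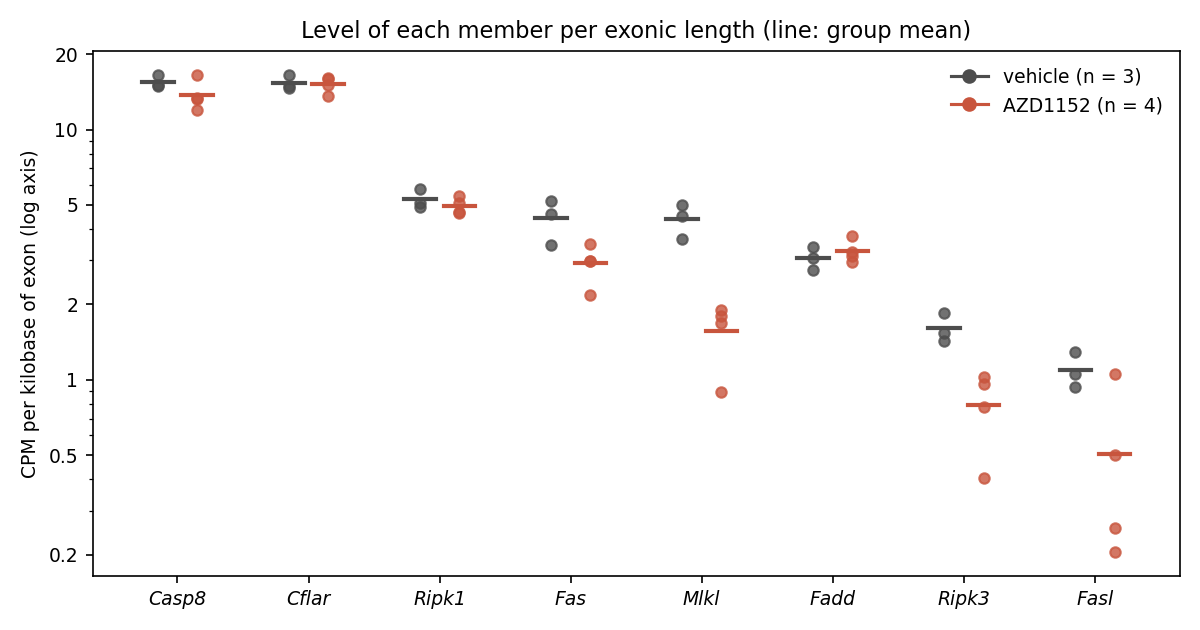
CPM per kilobase of annotated exon on a log axis for the 8 genes, ordered by the vehicle mean, with 1 point per library and a line at each group mean. Mlkl and Ripk3 sit lower in red (AZD1152, n = 4) than in grey (vehicle, n = 3) without overlap, at means of 1.57 and 0.793 beside 4.39 and 1.61. Fas and Fasl have lower means in red, 2.92 and 0.504 beside 4.42 and 1.1, with overlapping groups.

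Ratios of counts within a library, which do not depend on scaling, were compared for 4 pairs with two-sided exact permutation tests (35 label assignments). With 3 against 4 libraries the smallest p this design allows is 0.0571. The ratio of Ripk3 to Casp8, the kinase of necroptosis to the protease that cleaves it, was 0.0981, 0.0743 and 0.0754 with vehicle and 0.0495, 0.0268, 0.0468 and 0.0567 with AZD1152. It was lower in 4 of 4 treated libraries than in any vehicle library (difference -0.92 on the log2 scale, exact permutation p = 0.0571, adjusted over the 4 ratios 0.229). The ratio of Cflar to Casp8, inhibitor to protease, was 4.85, 3.88 and 4.33 with vehicle and 3.61, 5.84, 4.99 and 5.23 with AZD1152, a difference of 0.16 (exact permutation p = 0.4). Mlkl to Ripk3 differed by -0.43 (exact permutation p = 0.229), with 1.97 to 3.24 in vehicle and 1.64 to 2.32 in treated libraries. Fasl to Fas, ligand to receptor, differed by -0.81 (exact permutation p = 0.229) and ranged from 0.0805 to 0.283 with AZD1152 and from 0.19 to 0.352 with vehicle. Groups overlapped in these last 3 ratios.

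Markers of leukocytes moved with Mlkl. Of the T cell markers 9 of 16 were lower, of the cytotoxic lymphocyte markers 5 of 9 tested, and of the macrophage markers 9 of 14, with medians of -1.39, -1.30 and -0.95 on the log2 scale, where 4.81% of all genes were lower. Summed macrophage markers were 1066.2 to 1442.7 CPM with vehicle and 543.4 to 799.3 CPM with AZD1152, and summed cytotoxic markers 37.8 to 66.2 and 11 to 24.7 CPM. None of these markers was at 0 in all libraries. DESeq2 called 14, 8 and 13 of these genes lower (7.5% of all genes). The edgeR counts depended on single libraries: without vehicle replicate 3 they were 1, 1 and 2, where 1.02% of all genes were lower. The T cell count was 3 without AZD1152 replicate 4 or vehicle replicate 2, and the macrophage count was 3 without vehicle replicate 1. The cytotoxic count was 3 without AZD1152 replicate 2 and 2 without AZD1152 replicate 4 or vehicle replicate 2. Over all genes 521 and 336 were lower without AZD1152 replicate 2 or 4. Without vehicle replicate 1 or 2 there were 272 and 619, beside 759 with all libraries. Relative to the vehicle mean, Mlkl stood at -2.29 to -1.20 in the treated libraries on the log2 scale, Ripk3 at -1.99 to -0.65 and Fas at -1.01 to -0.34. The sums stood at -1.54 to -0.85 for T cells, -2.22 to -1.05 for cytotoxic lymphocytes and -1.19 to -0.63 for macrophages. Within the vehicle group, replicate 1 was the lowest for Mlkl (-0.27) and for the T cell (-0.40) and cytotoxic (-0.43) sums. For the macrophage sum the same library was the highest (0.22). The part of these cells in the Mlkl, Ripk3 and Fas values was not tested. In the lists for B and plasma cells, neutrophils and endothelium edgeR called 0 of 10, 0 of 6 and 0 of 9 tested genes. The medians were -0.69, -0.31 and -0.01. At an unadjusted p under 0.05 there were 4, 1 and 0 lower, beside 13.1% of all genes. In the same order 0, 0 and 1 were higher, beside 11.7%. DESeq2 called 3, 1 and 0 lower, beside 7.5%. Without AZD1152 replicate 1 edgeR called 1 B and plasma cell marker lower, and without AZD1152 replicate 3 it called 2 neutrophil markers lower. Over all genes 582 and 608 were lower in these fits. Of 13 kidney parenchyma markers 2 were higher, Slc34a1 of the proximal tubule and Atp6v1b1 of intercalated cells (3.02% of all genes, or 476). This count was 0 without vehicle replicate 1 or 3, where 126 and 60 of all genes were higher. It was 1 without AZD1152 replicate 2, 3 or 4, where 229, 248 and 107 of all genes were higher.

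**Figure D3:**
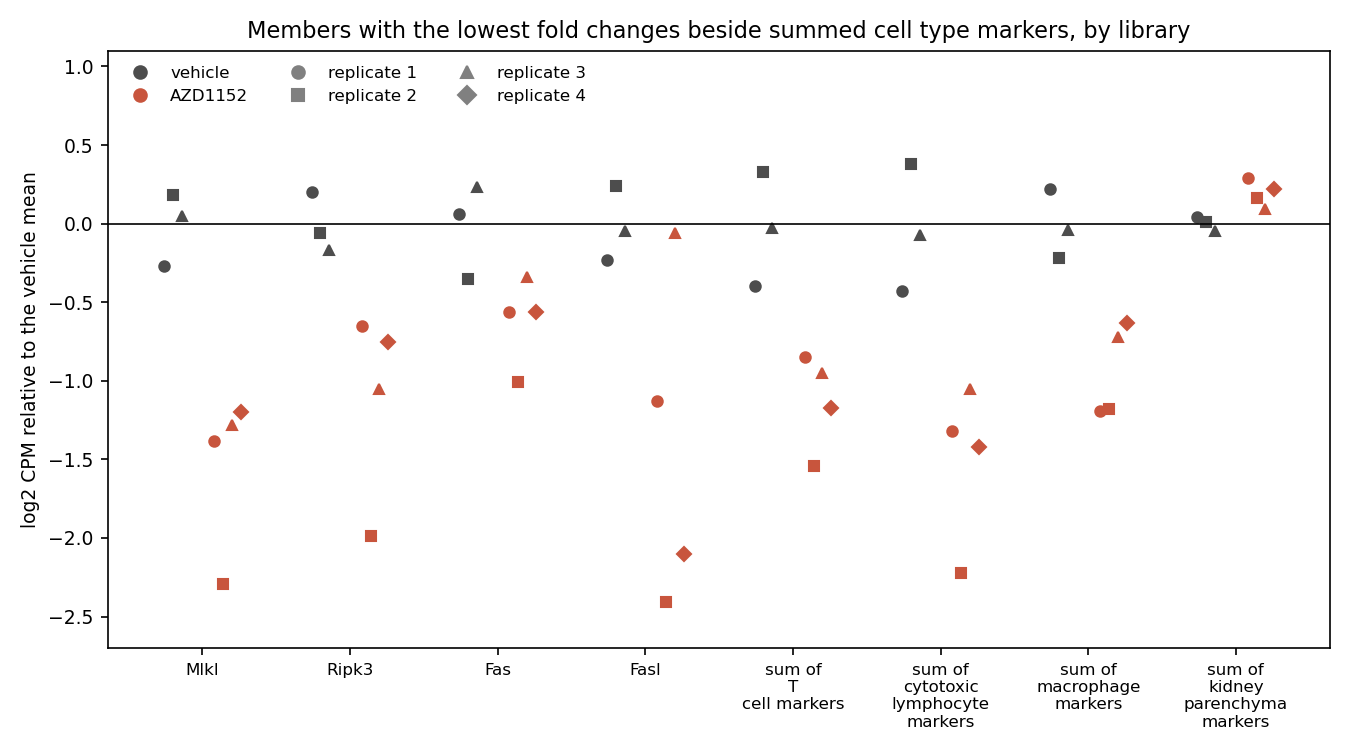
Log2 CPM relative to the vehicle mean (vertical axis) for Mlkl, Ripk3, Fas and Fasl beside the summed levels of 4 marker lists, with 1 point per library (vehicle grey, AZD1152 red, shape by replicate number). AZD1152 replicate 2 is the lowest point for the 4 genes and for the T cell and cytotoxic sums. The sum of kidney parenchyma markers, in which Slc34a1 accounts for the mean difference, stands at 0.09 to 0.29 in treated libraries.

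Other ligands and receptors of the TNF superfamily that can start these pathways were measured beside Fas. Of 15 tested genes 3 fell and 0 rose (median log2 fold change -0.29), beside 4.81% lower and 3.02% higher among all genes. At an unadjusted p under 0.05 there were 5 lower and 0 higher (13.1% and 11.7% of all genes), and in DESeq2 4 and 0 (7.5% and 6.02%). Tnfsf10, which encodes the death ligand TRAIL, fell by 1.04 ± 0.20 log2 units (SE; edgeR adjusted p = 0.0224), with 138.9 ± 21.1 CPM in vehicle (SD, n = 3) and 67.4 ± 17.7 CPM in treated kidneys (SD, n = 4). Both TNF receptors fell, Tnfrsf1b from 39.8 ± 9.21 to 18.4 ± 3.15 CPM and the death-domain receptor Tnfrsf1a from 95.5 ± 2.47 to 73 ± 6.41 CPM (edgeR adjusted p = 0.0127 and 0.0249). Tnfrsf12a, the receptor of TWEAK, had -0.85 ± 0.28 (edgeR adjusted p = 0.0967) and passed in 4 of 16 alternatives. These were DESeq2 (adjusted p = 0.0222) and edgeR without the filter (0.0323), with a replicate block (0.0417) and without vehicle replicate 2 (-1.12, adjusted p = 0.0336). Without vehicle replicate 3 it had -0.53 (edgeR adjusted p = 0.37). Without vehicle replicate 3 the list held 1 lower gene (1.02% of all genes), and the calls of Tnfsf10 and Tnfrsf1a were lost (edgeR adjusted p = 0.0748 and 0.093). With the replicate block, those of Tnfrsf1b, Tnfsf10 and Tnfrsf1a were lost (edgeR adjusted p = 0.0591, 0.0645 and 0.068). Over all genes 146 were lower in that fit. Tnfrsf1a also missed the threshold without AZD1152 replicate 4 (edgeR adjusted p = 0.0515), vehicle replicate 1 (0.0626) and vehicle replicate 2 (0.0513).

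Genes that act on the receptor complex and its ubiquitin chains mostly did not pass. Of 23 tested, 2 fell and 0 rose (median -0.09; 4.81% and 3.02% of all genes). There were 5 lower at an unadjusted p under 0.05 (13.1% of all genes) and 3 in DESeq2 (7.5%), with 0 higher in each. Tnfaip3, which encodes the ubiquitin-editing enzyme A20 and restrains NF-kB and necroptosis, fell from 32.2 ± 1.56 to 15 ± 2.56 CPM (log2 difference -1.10 ± 0.13, edgeR adjusted p = 0.00951). Birc3, a ubiquitin ligase that modifies RIPK1, fell from 25.5 ± 2.61 to 16 ± 1.31 CPM (edgeR adjusted p = 0.0137; 0.0573 without vehicle replicate 3). Mapkapk2 and Ikbkb, kinases that phosphorylate RIPK1, had -0.28 ± 0.09 and -0.25 ± 0.09 (edgeR adjusted p = 0.0812 and 0.105). Both passed under scaling by total counts, which gave 6 lower genes in this list (9.4% of all genes), and Mapkapk2 also in DESeq2. Without vehicle replicate 3 the list held 1 lower gene, beside 1.02% of all genes.

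Among caspases downstream of Casp8 and the apoptosome, 1 of 14 tested genes fell and 0 rose (median 0.10; 4.81% and 3.02% of all genes). There were 2 lower and 1 higher at an unadjusted p under 0.05 (13.1% and 11.7% of all genes) and 2 and 0 in DESeq2 (7.5% and 6.02%). Apaf1, the scaffold of the apoptosome, had -0.83 ± 0.23 (edgeR adjusted p = 0.062), and passed in DESeq2 (adjusted p = 0.0115), without the filter (0.0232) and under total counts (0.0314). It had 22.2 CPM in vehicle replicate 1 beside 12.3 and 11.9 CPM in the other 2, and without that library the estimate was -0.47 (edgeR adjusted p = 0.157). Endog and Diablo, which encode mitochondrial proteins released during apoptosis, had 0.50 ± 0.18 and 0.20 ± 0.11 (edgeR adjusted p = 0.124 and 0.28), and both share exonic bases with other genes.

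In the BCL2 family, which controls the mitochondrial route that caspase 8 can reach through Bid, 2 of 17 tested genes fell and 0 rose (median -0.17; 4.81% and 3.02% of all genes). At an unadjusted p under 0.05, 6 were lower (13.1% of all genes), and in DESeq2 3 (7.5%), with 0 higher in each. Bak1, a pore-forming member, fell from 18.2 ± 1.29 to 10.7 ± 0.687 CPM (log2 difference -0.76 ± 0.10, edgeR adjusted p = 0.00985), and its exons overlap those of Ggnbp1. Bcl2a1d, a survival gene of leukocytes with near-identical copies, had 1.84 ± 0.133 and 0.713 ± 0.281 CPM (edgeR adjusted p = 0.0458). Only the fit without AZD1152 replicate 1 kept that call among the 7 that leave out a library (edgeR adjusted p = 0.0669 to 0.16 in the other 6), and reads of Bcl2a1a, Bcl2a1b and Bcl2a1d may be split by the counting. Mcl1, a survival gene, had -0.35 ± 0.10 (edgeR adjusted p = 0.0683), and passed in DESeq2 (adjusted p = 0.0251), under total counts (0.0123) and without AZD1152 replicate 2 (0.0412). Bcl2a1a had -0.61 ± 0.21 (edgeR adjusted p = 0.107). The list held 4 lower genes under total counts (9.4% of all genes) and 1 without AZD1152 replicate 3 or 4 or any one vehicle library. Over all genes 608 and 336 were lower without AZD1152 replicate 3 or 4. Without vehicle replicate 1, 2 or 3 there were 272, 619 and 163, beside 759 with all libraries.

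The list of necroptosis partners held the gene with the lowest log2 fold change of the 5 pathway lists. Of 30 tested genes 7 fell and 2 rose (median -0.05), beside 4.81% lower and 3.02% higher among all genes. At an unadjusted p under 0.05 there were 10 lower and 3 higher (13.1% and 11.7% of all genes). In DESeq2 there were 9 and 2 (7.5% and 6.02%). Zbp1, a sensor of nucleic acids in Z form that binds RIPK3 directly, fell by 1.98 ± 0.27 log2 units (SE; edgeR adjusted p = 0.00951), with 20.5 ± 1.77 CPM in vehicle (SD, n = 3) and 5.2 ± 2.12 CPM in treated kidneys (SD, n = 4). Also among those that fell were Tlr3, a receptor for double-stranded RNA, and the genes Eif2ak2, Ifngr1, Irf9 and Irf1 of the interferon response. Eif2ak2 fell from 39.8 ± 1.78 to 23.9 ± 3.71 CPM and Irf9 from 55.7 ± 2.43 to 37.3 ± 3.91 CPM (edgeR adjusted p = 0.0139 and 0.0127). Both share exonic bases with other genes, among them Gm26637 (Eif2ak2) and Rnf31 (Irf9). The 2 that rose, named after their values were seen, were the chaperone genes Hsp90aa1 (0.68 ± 0.14) and Hsp90ab1 (0.51 ± 0.11), whose products with Cdc37 stabilise the RIP kinases and many other clients (edgeR adjusted p = 0.0273 and 0.0309). Without AZD1152 replicate 4 or vehicle replicate 1 the list held 4 lower genes. Over all genes 336 and 272 were lower in these fits, beside 759 with all libraries. Leaving out vehicle replicate 3 gave 3 lower and 1 higher, where 163 and 60 of all genes were lower and higher. The calls of Irf9 (edgeR adjusted p = 0.0508) and Hsp90ab1 (0.0802) were then lost. The Hsp90 calls were also lost without AZD1152 replicate 3 (edgeR adjusted p = 0.0543 and 0.0661) or 4 (0.0701 and 0.0849), and that of Hsp90ab1 without vehicle replicate 1 (0.0674).

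**Figure D4:**
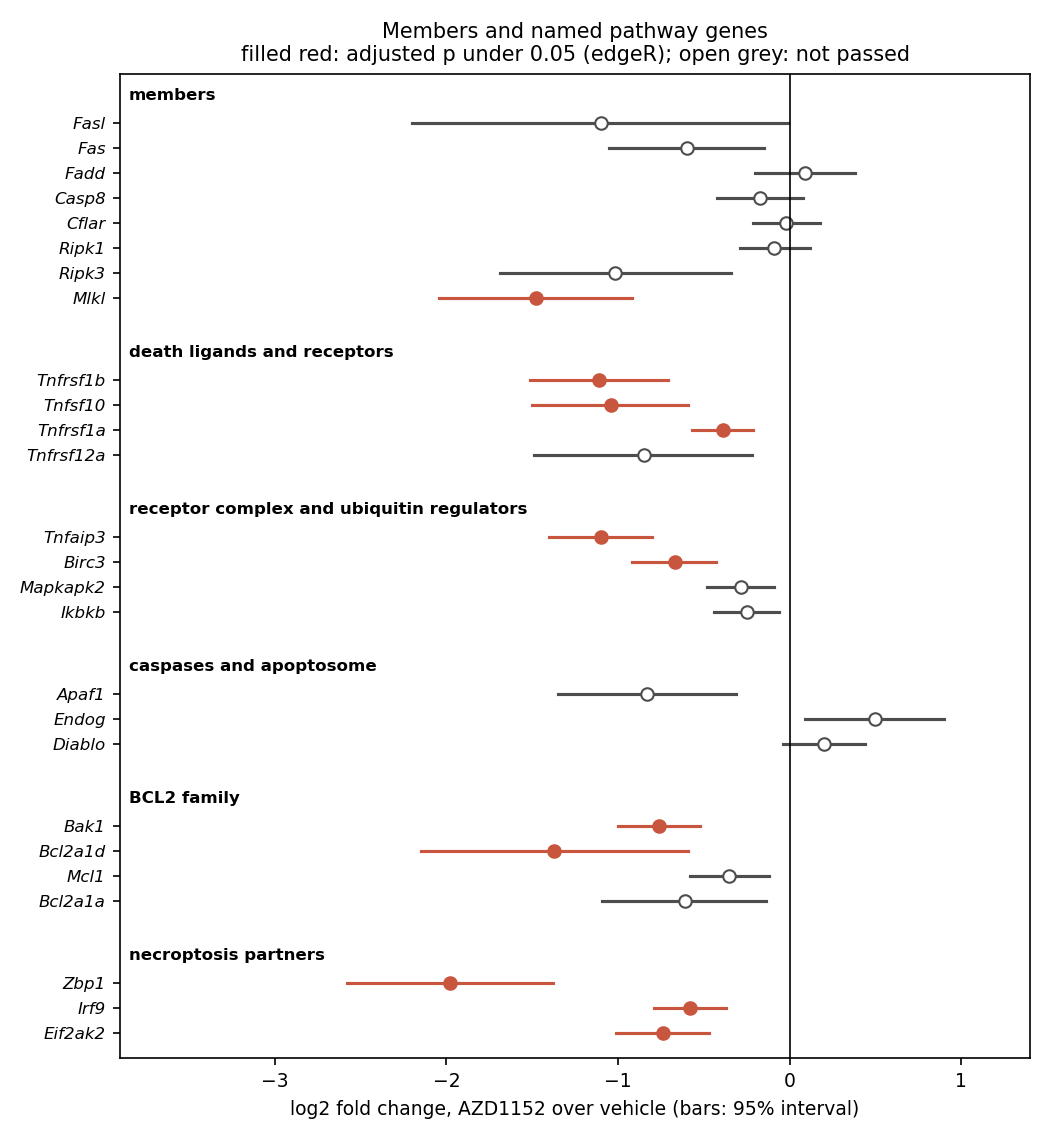
Log2 fold changes of AZD1152 over vehicle with 95% intervals (horizontal axis) for the 8 genes and the named genes of 5 pathway lists, up to 4 a list by smallest p, filled red where the edgeR adjusted p was under 0.05. Mlkl at -1.48 and Zbp1 at -1.98 are the lowest filled points of the 8 genes and of the partners, and the intervals of Fadd, Casp8, Cflar and Ripk1 include 0.

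For each of the 8 genes the 3 genes with the most similar profile over the 7 libraries were found, by the root mean square difference between centred log2 CPM profiles among 13718 genes. Mlkl was nearest to Kif21b (0.0788), Batf2 (0.0845) and Gbp4 (0.104), and Ripk3 to Espl1 (0.104), Ccr1 (0.129) and Usp18 (0.136). Fas was nearest to Alpk1, Actn1 and S100a11 (0.0708 to 0.0762), and Fasl to Bcl3, H2-Q1 and Rmi2 (0.247 to 0.261), the largest differences of the 8. The genes with flat profiles had Use1, Nckipsd and Rragb (Fadd), Whamm, Extl2 and Psip1 (Casp8), Mtg1, Kat6a and Calm2 (Cflar) and Cdkl2, Nfatc3 and U2af1 (Ripk1) at 0.0275 to 0.0523. These lists rest on few libraries: with each library left out in turn, 62 of 168 such placements remained among the nearest 3.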

How the data were processed

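Kidney RNA of 7 mice was measured as read counts per gene. The authors deposited raw counts, which are whole numbers with no scaling. Per the submitters' processing notes, HISAT2 2.0.5 and the build GRCm38 were used, while the counting tool and its use of strand, and the gene models counted, are not given in the sources used here. Gene names and positions came from GENCODE M21 (GRCm38), which named 53360 of 53465 genes. Counts were filtered with filterByExpr, scaled by TMM and tested by quasi-likelihood in edgeR 4.0.16 under R 4.3.3 with group as the sole term, adjusted by Benjamini-Hochberg over 15774 genes, threshold 0.05, two-sided. Per the series text each library is 1 mouse. SE is the absolute estimate over the root of its F statistic, intervals are 95% from the t distribution of the fit, and profiles used log2 CPM with a prior count of 2. The floor of 3 counts covers counting error only. The 8 genes, the 5 pathway lists and the 7 marker lists were chosen with earlier results of these data known. Named genes were the 8, the up to 4 of each pathway list with the smallest p, and the 3 most similar genes of each of the 8. Exceptions are said where they occur, and some genes are not reported here. Steps were tested on simulated counts. Alternatives were other scalings and filters, DESeq2 1.42.0, limma-voom 3.58.1, a replicate block and leaving out each library.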

Additional observations from a re-analysis of the deposited data

How the results depend on the processing

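All 8 genes kept the sign of their estimate under other scalings, filters and tools and with each library left out, with 3 exceptions among 127 values: Fadd was -0.07 under total counts, and Cflar, at -0.06 to 0.04 with a library left out, was above 0 without AZD1152 replicate 1 (0.03) or vehicle replicate 1 (0.04). The cause was not tested. Mlkl ranged from -1.63 to -1.30. The count of lower genes among the 8 was 2 in DESeq2 and 2 under total counts, and 0 to 2 with a library left out. Over all genes DESeq2 called 950 higher and 1183 lower and total counts 232 and 1482, while leaving out a library gave 60 to 475 higher and 163 to 619 lower. The Ripk3 to Casp8 ratio kept its sign at -1.05 to -0.69 with a library left out, and the other 3 ratios kept theirs. Of 319 values of the 20 named pathway genes, 29 lost and 13 gained a call and 0 changed sign. Fasl was not tested under the stricter filter. Replicate numbers name different mice: deviations of same-numbered libraries correlated at -0.288, 0.209 and -0.119. With the replicate number as a block, 63 genes were higher and 146 lower, and 0 of the 8 were called, with Mlkl at -1.61 (edgeR adjusted p = 0.0611). Of the named pathway genes called without the block, Tnfaip3 and Zbp1 kept their calls (edgeR adjusted p = 0.0408 and 0.0339). The others, among them Bak1 (0.0556) and Eif2ak2 (0.0524), lost theirs. Fasl (6 to 44 counts) and Ripk3 (14 to 73 counts) are the genes whose precision depth limits most.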
